A study of Mus musculus with 16 samples.

Results

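Mitochondrial ribosomal protein genes were followed in the atria of mice after myocardial infarction. The set holds every gene whose measured row on the array carried exactly 1 symbol of the form Mrpl or Mrps followed by a number. It came to 78 genes, each with 1 row, of 30141 genes with such a row. Of the 78, 46 with an Mrpl symbol together with Mrps30 and Mrps18a, which structural work has placed in the large subunit in spite of their names, gave 48 large subunit genes. A further 25 belong to the small subunit, 4 are pseudogenes, and the last, Mrps36, is now known as a component of the 2-oxoglutarate dehydrogenase complex and not of the ribosome.

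All mice were wild-type C57BL/6 males of 10 weeks. In the infarction groups the left anterior descending coronary artery was ligated, and atrial tissue was taken on day 1, day 3 or day 7, with 4 arrays for each day. The control group was 4 arrays of atria from sham-operated mice, for which the labels give no time after surgery. The ligated artery mainly supplies the left ventricle, and the tissue measured was not the infarct itself. The labels do not say whether an array held the tissue of 1 animal or of several, nor which atrium was used. They name a 3' expression array, but the row names are those of transcript clusters, so the array design is uncertain.

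The mitochondrial ribosome, or mitoribosome, translates the few proteins encoded by mitochondrial DNA, all of them parts of the respiratory chain and of ATP synthase. Its RNAs come from mitochondrial DNA, while its proteins are encoded in the nucleus, made in the cytosol and imported. The working heart is dense in mitochondria, and in people inherited defects of several of these proteins, MRPL3 and MRPL44 among them, cause cardiomyopathy.

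Values are the deposited log2 signals, and a difference is a group mean minus the sham mean on that scale. Precision is limited by the small number of arrays in a group. Because the scaling applied before deposition is not known here, no difference is turned into a fold. A gene was called when its adjusted p in limma was below 0.05, with Benjamini-Hochberg adjustment over the 18419 genes tested in each comparison. Tests were run on genes whose signal exceeded the array-wide median on 4 or more of the 16 arrays, as 77 of the 78 members did. Mrpl36, which encodes the L36 protein of the large subunit, was not tested: it did not exceed the median negative control row on 4 of 4 arrays of each infarction day and on 3 of 4 sham arrays. Mrpl41 did not exceed that median on 3 of 4 day 1 arrays and 1 day 3 array, and Mrps25 on 1 day 3 array.

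Array 13 of day 1 and array 31 of day 3 stood apart. The positive control rows were separated from the negative ones with an area under the curve of 0.755 on array 13 and 0.743 on array 31, against 0.793 to 0.825 on the remaining infarction arrays and 0.812 to 0.821 on the sham arrays. Array 31 was the lowest day 3 array for 75 of the 78 members, and array 13 the lowest day 1 array for 62. At the other end, array 12 was the highest day 1 array for 69 members. Results are therefore given with all 16 arrays, and the main counts and calls that differ without arrays 13 and 31 are given beside them. A count of a gene list or group with no such value beside it may also differ in that fit.

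Most mitoribosomal transcripts were lower than sham on every infarction day. On day 1, 61 of the 77 tested members fell and 2 rose, where 22.2% of all tested genes fell and 24.9% rose. On day 3, 63 members fell and 1 rose, against 20.2% and 23.5% of all tested genes. On day 7, 46 members fell and none rose in limma, against 9.92% and 14.9% of all tested genes. At an unadjusted p under 0.05, day 7 had 65 members lower and 0 higher, where 35.6% of all tested genes passed in either direction. The median difference of the members was -0.65 on day 1, -0.59 on day 3 and -0.51 on day 7, where the median of all tested genes was 0.06, 0.08 and -0.01. In the 77 members, 41 fell on all 3 days, 17 fell on days 1 and 3 but were not called on day 7, and 6 were called on no day.

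Neither choice of scaling turned this direction. Quantile normalisation moved the median of all genes on day 1 to -0.15, and 67 members then fell and 1 rose. After each array was centred on its median, 68 members fell and 1 rose on day 1. Relative to the median of all genes, the members' median on day 1 was -0.72 as deposited and -0.73 after quantile normalisation. Centring shifts all genes of an array alike, so it cannot change this relative value. The split over all genes moved more. On day 1, 52.9% of 8678 calls were rises as deposited, 30.3% of 8638 after quantile normalisation and 38.5% of 9002 after centring. More of all tested genes, and not only of the members, were thus called lower on day 1 under both scalings than as deposited. The share of rises among calls was 53.8%, 36.1% and 36.9% on day 3, and 60.0%, 60.8% and 37.9% on day 7.

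In single arrays, all 4 values of the infarction group lay below all 4 sham values for 64 of the 78 members on day 1, 61 on day 3 and 66 on day 7. Of all tested genes, 24.2%, 20.5% and 18.4% lay so on these days. The reverse, with all 4 values above sham, held for 2, 2 and 0 members, against 30.9%, 22.3% and 19.9% of all tested genes. Taking each array's median over the 48 large subunit genes, relative to each gene's sham mean, the day 1 arrays gave -0.60, -0.39, -1.05 and -0.66, the day 3 arrays -1.22, -0.46, -0.50 and -0.57, the day 7 arrays -0.53, -0.49, -0.41 and -0.60, and the sham arrays -0.06, 0.00, 0.02 and 0.04. For the 25 small subunit genes the same medians ran from -0.60 to -0.30 on day 1, -0.76 to -0.32 on day 3, -0.57 to -0.37 on day 7 and -0.02 to 0.02 in sham. All 12 infarction arrays lay below all 4 sham arrays for both subunits. Arrays 13 and 31 were the lowest of their groups in both.

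**Figure D1:**
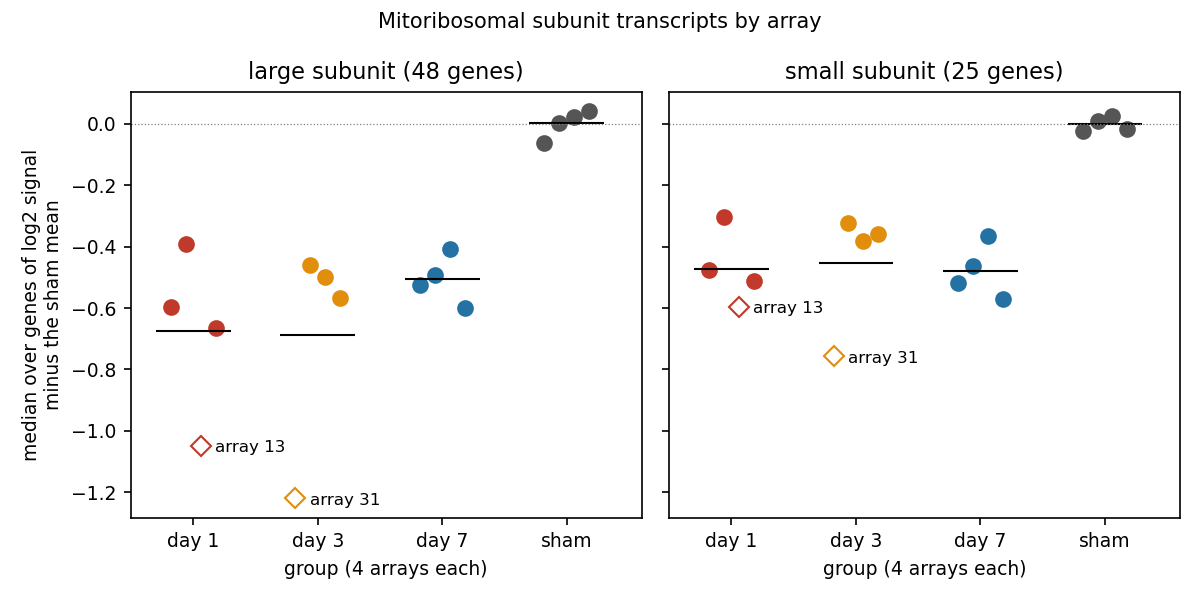
Each point is 1 array and shows the median over the genes of the large subunit (left) or the small subunit (right) of the log2 signal minus the sham mean of the gene; the horizontal lines are group means over 4 arrays and open diamonds mark arrays 13 and 31. All infarction arrays lie below the sham arrays, and the lowest point of each panel is array 31, at -1.22 for the large subunit and -0.76 for the small subunit.

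Atria are bulk tissue, in which fewer cells of a type and less RNA per cell cannot be told apart. Markers of other cells moved with the days. Of 8 tested neutrophil markers 7 rose on day 1 and 7 on day 3, led by Retnlg and S100a8 with differences from sham of 8.70 and 8.21 on day 1, and none were called on day 7. The log2 of the summed neutrophil marker signal was 16.11 on array 13 against 13.98 to 14.16 on the other day 1 arrays, and 14.77 on array 31 against 10.06 to 10.11 on the other day 3 arrays. It ran from 8.24 to 8.34 on day 7 and 8.07 to 8.58 in sham. So the arrays with the lowest mitoribosomal values had the highest neutrophil signal of their groups. Of 10 macrophage markers 7, 10 and 9 rose on days 1, 3 and 7, among them Ccr2, a chemokine receptor gene, at 4.26 on day 1 and Ctss, a protease gene, at 6.12 and 6.20 on days 3 and 7. Their summed signal ran from 15.95 to 16.75, 16.34 to 18.20 and 17.24 to 18.54 on days 1, 3 and 7, and 14.00 to 14.33 in sham, and array 31, at 16.34, lay below the other day 3 arrays, of which the lowest was at 17.88. Of 8 fibroblast markers, 4 fell on day 1, 4 rose on day 3, led by Col3a1 at 4.69, and 7 rose on day 7, led by Postn at 6.87, and the summed signal ran from 15.25 to 16.38, 15.70 to 18.22, 19.30 to 19.68, and 16.70 to 16.96 in sham, with arrays 13 and 31 the lowest of their days. Of 11 cardiomyocyte markers 4 fell on day 1 and 5 on day 3, among them the atrial genes Sln, at -5.09 and -3.51, and Myl7, at -3.10 and -3.49, and none were called on day 7, where Myl7 was at -2.14 (adjusted p = 0.224). When arrays 13 and 31 were left out, 7, 7 and 5 cardiomyocyte markers fell on days 1, 3 and 7, Myl7 at -2.14 on day 7 among them (adjusted p = 0.0259), and centring called 2 on day 7. The 7 day 3 falls without arrays 13 and 31 included Myh6, at -0.21, a gene near the top of the scale. Sln stood at -5.60 and -1.87 on days 1 and 3 in the fit without those arrays. Myl4, also an atrial gene, was not called in that fit. It stood at -0.55, 0.0015 and -0.24 on days 1, 3 and 7 (adjusted p = 0.0916, 0.997 and 0.472). The summed signal ran from 21.56 to 21.88, 21.14 to 21.84 and 21.88 to 21.98 on days 1, 3 and 7, and 22.05 to 22.16 in sham, but it is dominated by Nppa and Tnnt2, which carried the same top-of-scale values on every array, and by Myh6, which was level at 19.81 on every day 7 array. No difference can be read from genes at that level. The mean log2 signal of the other 8 cardiomyocyte markers ran from 13.30 to 14.27 on day 1, 11.76 to 14.77 on day 3, 14.55 to 15.21 on day 7 and 15.43 to 15.75 in sham. Array 31 gave the 11.76, and the other day 3 arrays lay between 14.58 and 14.77. On day 1 the lowest was array 12, at 13.30, which was the highest day 1 array for 69 mitoribosomal members. Array 13 stood at 13.75. Of 7 endothelial markers 3, 0 and 0 fell and 1, 2 and 1 rose on days 1, 3 and 7, and of 10 genes of cell division 1, 10 and 9 rose, with Mki67 at 5.90 on day 3. The summed signal of the division genes was 11.16 on array 31, against 12.91 to 13.20 on the other day 3 arrays. Once arrays 13 and 31 were removed, rises were called for 4 division genes and 2 fibroblast markers on day 1, and for 2 neutrophil and 2 endothelial markers on day 7; endothelial markers then had 0 rises on day 1 and 3 rises and 1 fall on day 3. None of the markers tested is listed at 0. The part of these shifts in the mitoribosomal result was not tested.

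**Figure D2:**
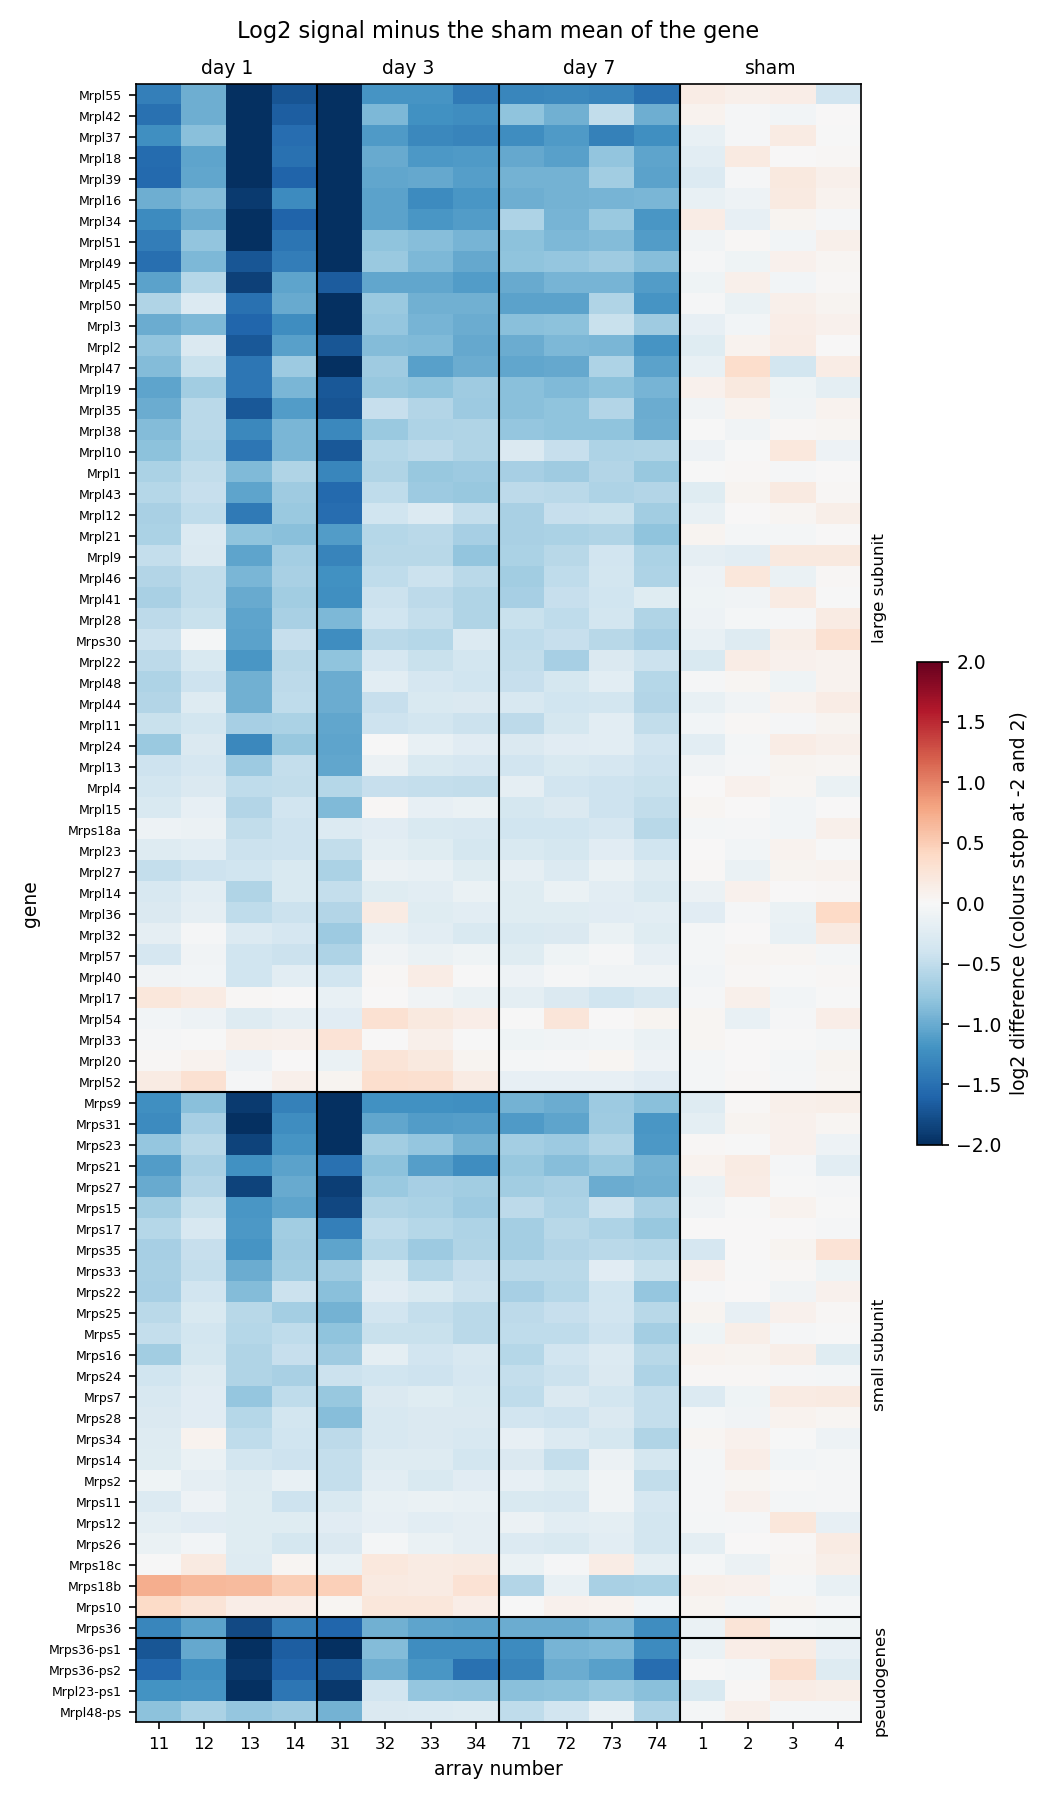
Rows are the 78 genes, grouped as large subunit, small subunit, Mrps36 and pseudogenes and ordered by their mean over the infarction arrays; columns are the 16 arrays by number, and colour is the log2 signal minus the sham mean of the gene. Blue covers most infarction columns, is darkest in arrays 13 and 31, and Mrps18b is red on days 1 and 3 and blue on day 7.

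In the large subunit, 37 of 47 tested genes fell on day 1 and none rose, 38 fell and 1 rose on day 3, and 24 fell on day 7 and none rose. The medians were -0.66, -0.67 and -0.54. In the fit that left out arrays 13 and 31, the counts were 39 falls and 1 rise on day 1, 36 falls and 3 rises on day 3, and 41 falls on day 7. For day 7, centring gave 38 falls and quantile normalisation left 16. Mrpl55, a homologue of bacterial L31, was among the 8 largest called falls on each of the 3 days, as no other large subunit gene was. Its signals were 6.75, 7.15, 6.07 and 6.40 on the day 1 arrays, 5.86, 6.94, 6.95 and 6.70 on the day 3 arrays, 6.81, 6.84, 6.80 and 6.63 on the day 7 arrays, and 8.27, 8.23, 8.26 and 7.74 on the sham arrays. The highest infarction value lay below the lowest sham value, which came from array 4. The difference was -1.53 (standard error 0.25, adjusted p = 0.000274) on day 1, -1.51 (standard error 0.25, adjusted p = 0.000241) on day 3 and -1.35 (standard error 0.25, adjusted p = 0.00126) on day 7.

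Mrpl37 encodes a protein of the large subunit that has no bacterial counterpart. Its values were 7.81, 8.19, 6.80 and 7.50 on the day 1 arrays, 6.82, 7.89, 7.74 and 7.72 on the day 3 arrays, 7.79, 7.90, 7.68 and 7.80 on the day 7 arrays, and 8.89, 9.01, 9.20 and 9.02 on the sham arrays. No infarction value reached the sham range, and the difference was -1.45, -1.49 and -1.24 on days 1, 3 and 7 (adjusted p = 0.000605, 0.000411 and 0.00332). Mrpl39, another protein without a bacterial counterpart, gave 9.48, 10.00, 8.51 and 9.45 on the day 1 arrays, 8.32, 10.00, 10.02 and 9.94 on the day 3 arrays, 10.10, 10.10, 10.35 and 9.98 on the day 7 arrays, and 10.77, 11.01, 11.24 and 11.15 on the sham arrays. Its differences of -1.68 on day 1 and -1.47 on day 3 were called (adjusted p = 0.00195 and 0.00405), and its day 7 difference of -0.91 was not called (adjusted p = 0.0796) although no day 7 value reached the sham range.

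Mrpl42 had the largest fall among all members on day 3. It gave 14.31, 14.82, 13.28 and 14.16 on the day 1 arrays, 12.17, 14.90, 14.59 and 14.56 on the day 3 arrays, 15.00, 14.84, 15.31 and 14.82 on the day 7 arrays, and 15.88, 15.77, 15.74 and 15.81 on the sham arrays. The day 1 difference was -1.66 (standard error 0.47, adjusted p = 0.0117) and the day 3 difference -1.75 (standard error 0.47, adjusted p = 0.00819). Array 31, at 12.17, lay below the other day 3 arrays, of which the lowest read 14.56. Without arrays 13 and 31 the fall was -1.37 (standard error 0.15, adjusted p = 1.2e-05) on day 1 and -1.12 (standard error 0.15, adjusted p = 4.91e-05) on day 3. On day 7 the difference was -0.81 and was not called (adjusted p = 0.247).

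Mrpl18 encodes the L18 homologue, which in human cells has been tied to the import of 5S rRNA into mitochondria. Its signals were 7.97, 8.45, 7.06 and 8.02 on the day 1 arrays, 6.97, 8.50, 8.35 and 8.37 on the day 3 arrays, 8.49, 8.42, 8.71 and 8.46 on the day 7 arrays, and 9.29, 9.69, 9.51 and 9.53 on the sham arrays. It fell on each day, with differences of -1.63, -1.46 and -0.99 on days 1, 3 and 7 (adjusted p = 0.00108, 0.00198 and 0.0352), and the sham values did not overlap with those of any day. Mrpl34, the L34 homologue, also fell on each day, with differences of -1.51, -1.34 and -0.86 (adjusted p = 0.000271, 0.000542 and 0.018).

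Around the peptidyl transferase centre, where the homologues of bacterial L2, L3, L16 and L27 lie, the 4 genes Mrpl2, Mrpl3, Mrpl16 and Mrpl27 all fell on days 1 and 3, with medians of -1.07 and -1.17. On day 7 Mrpl2 and Mrpl16 fell, and without arrays 13 and 31 all 4 did. In that fit 3 of the 4 fell on day 3, with a median of -0.91, and Mrpl27, at -0.17, was not called (adjusted p = 0.0709). Mrpl16 gave 8.85, 8.96, 7.91 and 8.56 on the day 1 arrays, 7.09, 8.76, 8.57 and 8.66 on the day 3 arrays, 8.84, 8.88, 8.89 and 8.91 on the day 7 arrays, and 9.68, 9.72, 9.99 and 9.90 on the sham arrays. Its difference was -1.25, -1.55 and -0.94 on days 1, 3 and 7 (adjusted p = 0.00532, 0.00109 and 0.0394), with every infarction value below sham. Mrpl2 had differences of -0.96, -1.12 and -0.99. Mrpl3 fell on days 1 and 3, with differences of -1.18 and -1.21, and its day 7 difference was -0.70 (adjusted p = 0.0535).

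At the polypeptide exit, Mrpl22, Mrpl23, Mrpl24 and Mrpl47 are homologues of bacterial exit tunnel proteins and Mrpl45 anchors the mitoribosome to the inner membrane. All 5 fell on day 1, 4 fell on day 3 and 3 on day 7. Mrpl45 gave 8.83, 9.32, 8.03 and 8.85 on the day 1 arrays, 8.24, 8.86, 8.85 and 8.78 on the day 3 arrays, 8.89, 8.97, 8.97 and 8.77 on the day 7 arrays, and 9.81, 10.00, 9.85 and 9.93 on the sham arrays. It fell on each day, with differences of -1.14, -1.22 and -0.997 (adjusted p = 0.000873, 0.000437 and 0.00381), with no value shared with the sham range. In the stalk that binds translation factors, Mrpl10, Mrpl11 and Mrpl12 all fell on days 1 and 3 and Mrpl11 also on day 7, when all 3 fell without arrays 13 and 31. Mrpl12, which has also been reported to bind the mitochondrial RNA polymerase, gave 7.22, 7.38, 6.46 and 7.14 on the day 1 arrays, 6.35, 7.48, 7.61 and 7.40 on the day 3 arrays, 7.22, 7.41, 7.44 and 7.19 on the day 7 arrays, and 7.73, 7.88, 7.91 and 7.99 on the sham arrays. It fell on days 1 and 3, with differences of -0.83 and -0.67 (adjusted p = 0.0133 and 0.0365), and stood at -0.56 on day 7 (adjusted p = 0.11).

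Large subunit genes that went against this trend were few and their differences small. Mrpl52, a subunit without a bacterial counterpart, gave 6.94, 7.07, 6.74 and 6.87 on the day 1 arrays, 6.82, 7.10, 7.08 and 6.94 on the day 3 arrays, 6.60, 6.60, 6.60 and 6.55 on the day 7 arrays, and 6.72, 6.79, 6.75 and 6.81 on the sham arrays. It rose by 0.22 on day 3 (adjusted p = 0.0373), a call lost under quantile normalisation, centring, no filter on low values, a fit of only these groups, and in 6 of the 16 fits that left out 1 array. Its day 7 values all lay below all sham values, and the difference there was -0.18 (adjusted p = 0.117). When arrays 13 and 31 were left out, it was called higher on days 1 and 3, at 0.19 and 0.27 (adjusted p = 0.0201 and 0.00272), and lower on day 7 (adjusted p = 0.0252). Mrpl17, the L17 homologue, had differences of 0.10 and -0.08 on days 1 and 3 that were not called, and fell by 0.30 on day 7 (adjusted p = 0.00628). Mrpl20, Mrpl33, Mrpl40 and Mrpl54 were not called on any day, with differences between -0.18 and 0.10. Once arrays 13 and 31 were removed, Mrpl20 was called higher on day 3 at 0.17 (adjusted p = 0.0248) and Mrpl54 at 0.21 (adjusted p = 0.0385). Mrpl15, the L15 homologue, was also called on no day but stood below sham, with differences of -0.36, -0.29 and -0.39 on days 1, 3 and 7 (adjusted p = 0.0679, 0.147 and 0.0869). It gave 7.37, 7.51, 7.09 and 7.29 on the day 1 arrays, 6.79, 7.69, 7.51 and 7.54 on the day 3 arrays, 7.33, 7.38, 7.27 and 7.18 on the day 7 arrays, and 7.71, 7.68, 7.62 and 7.69 on the sham arrays, so that array 32, at 7.69, reached the sham range and no day 1 or day 7 array did. In the fit that left out arrays 13 and 31, it was called lower on days 1 and 7, at -0.29 and -0.39 (adjusted p = 0.00551 and 0.000666), and stood at -0.10 on day 3 (adjusted p = 0.334).

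Mrps30, an S-named protein of the large subunit, gave 7.40, 7.79, 6.77 and 7.36 on the day 1 arrays, 6.59, 7.29, 7.27 and 7.55 on the day 3 arrays, 7.32, 7.37, 7.27 and 7.17 on the day 7 arrays, and 7.68, 7.57, 7.94 and 8.13 on the sham arrays. It fell by 0.66 on day 3 (adjusted p = 0.0241), and its differences of -0.50 on day 1 and -0.54 on day 7 were not called (adjusted p = 0.0704 and 0.0854). Without arrays 13 and 31 the day 7 difference was called (adjusted p = 0.00442).

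In the small subunit, 19 of 25 genes fell and 2 rose on day 1, 20 fell and none rose on day 3, and 19 fell and none rose on day 7. The medians were -0.49, -0.44 and -0.46. When arrays 13 and 31 were left out, 19 fell and 2 rose on day 1, 19 fell and 1 rose on day 3, and 23 fell on day 7, while quantile normalisation left 12 falls on day 7. Mrps9, a homologue of a protein of the head of the bacterial small subunit, gave 9.19, 9.59, 8.50 and 9.07 on the day 1 arrays, 8.00, 9.21, 9.21 and 9.19 on the day 3 arrays, 9.47, 9.43, 9.69 and 9.58 on the day 7 arrays, and 10.16, 10.44, 10.53 and 10.54 on the sham arrays. It fell on each day, with differences of -1.33, -1.52 and -0.87 on days 1, 3 and 7 (adjusted p = 0.00124, 0.000385 and 0.0258), and no infarction value reached the sham range. Mrps31, a subunit without a bacterial counterpart, gave 7.78, 8.39, 7.01 and 7.80 on the day 1 arrays, 6.82, 8.01, 7.94 and 7.95 on the day 3 arrays, 7.92, 7.99, 8.33 and 7.88 on the day 7 arrays, and 8.86, 9.10, 9.13 and 9.09 on the sham arrays. It fell on each day, with differences of -1.30, -1.37 and -1.02 (adjusted p = 0.00218, 0.00129 and 0.0162), again with no overlap with sham.

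Of the head genes Mrps7, Mrps9, Mrps10 and Mrps14, all but Mrps10 fell on each day, with Mrps7 at -0.46, -0.40 and -0.41 and Mrps14 at -0.29, -0.34 and -0.31. Near the decoding site and the mRNA entry, Mrps5, Mrps12 and Mrps24 fell on days 1 and 3, and Mrps5 and Mrps24 on day 7; without arrays 13 and 31 Mrps12 was called on day 7 and not on day 3. Mrps5 had differences of -0.49, -0.56 and -0.53 on days 1, 3 and 7. On the platform, Mrps21 had differences of -1.01, -1.17 and -0.83, Mrps11 fell by 0.26 on days 1 and 7, and Mrps18c was not called on any day. Mrps22, in which inherited defects cause cardiomyopathy in people, fell on each day, with differences of -0.59, -0.45 and -0.60 (adjusted p = 0.00379, 0.0163 and 0.00557).

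Falls occurred both among genes for proteins with a bacterial homologue and among those without one. Of the 28 tested large subunit genes with a bacterial homologue 23, 23 and 16 fell on days 1, 3 and 7, and of the 19 without one 14, 15 and 8 fell. In the small subunit 12, 12 and 10 of the 15 with a homologue fell, and 7, 8 and 9 of the 10 without one. Once arrays 13 and 31 were removed, the day 7 counts were 25 of 28 and 16 of 19 in the large subunit and 13 of 15 and 10 of 10 in the small subunit. Medians on day 1 were -0.65 and -0.70 for the large subunit classes and -0.46 and -0.64 for the small subunit classes. The differences between these classes were not tested.

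The 3 relatives of bacterial S18 did not move together. Mrps18c takes the place of the bacterial protein in the small subunit, Mrps18b lies elsewhere in the small subunit, and Mrps18a lies in the large subunit. Mrps18b gave 7.80, 7.73, 7.70 and 7.56 on the day 1 arrays, 7.55, 7.26, 7.24 and 7.36 on the day 3 arrays, 6.49, 6.92, 6.42 and 6.43 on the day 7 arrays, and 7.18, 7.16, 7.03 and 6.92 on the sham arrays. All 4 values of day 1 and all 4 of day 3 lay above the sham range, and all but array 72 on day 7 lay well below it; that array, at 6.92, was level with the lowest sham value. Mrps18b rose by 0.63 (standard error 0.12, adjusted p = 0.000734) on day 1 and fell by 0.51 on day 7 (adjusted p = 0.00529), while its day 3 difference of 0.28 was not called (adjusted p = 0.0641). The day 1 rise was called in all 9 alternative settings and in each of the 16 fits without 1 array. Of these settings, the mean of a gene's rows could not change its values, since each member has 1 row.

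Mrps18a gave 5.56, 5.54, 5.16 and 5.24 on the day 1 arrays, 5.38, 5.43, 5.35 and 5.33 on the day 3 arrays, 5.25, 5.26, 5.32 and 5.10 on the day 7 arrays, and 5.62, 5.64, 5.60 and 5.76 on the sham arrays. It fell on each day, with differences of -0.28, -0.28 and -0.42 on days 1, 3 and 7 (adjusted p = 0.0175, 0.0163 and 0.00255), with every infarction value below the lowest sham value. Mrps18c gave 8.02, 8.21, 7.77 and 8.06 on the day 1 arrays, 7.90, 8.24, 8.19 and 8.21 on the day 3 arrays, 7.89, 8.00, 8.18 and 7.82 on the day 7 arrays, and 7.99, 7.91, 8.07 and 8.14 on the sham arrays. Its range overlapped with sham on all 3 days, and its differences of -0.01, 0.11 and -0.05 were not called (adjusted p = 0.934, 0.464 and 0.83).

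The only other small subunit gene that rose was Mrps10, the S10 homologue. It gave 6.75, 6.63, 6.51 and 6.51 on the day 1 arrays, 6.40, 6.59, 6.59 and 6.50 on the day 3 arrays, 6.37, 6.45, 6.44 and 6.32 on the day 7 arrays, and 6.43, 6.31, 6.42 and 6.32 on the sham arrays. The day 1 values all lay above the sham range, and the rise was 0.23 (standard error 0.07, adjusted p = 0.0171). That call was lost under quantile normalisation, at 0.02, and under centring, at 0.14. On days 3 and 7 the differences were 0.16 and 0.03 and were not called (adjusted p = 0.091 and 0.878). In the fit that left out arrays 13 and 31, Mrps10 was called higher on day 3 as well, at 0.20 (adjusted p = 0.0264).

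**Figure D3:**
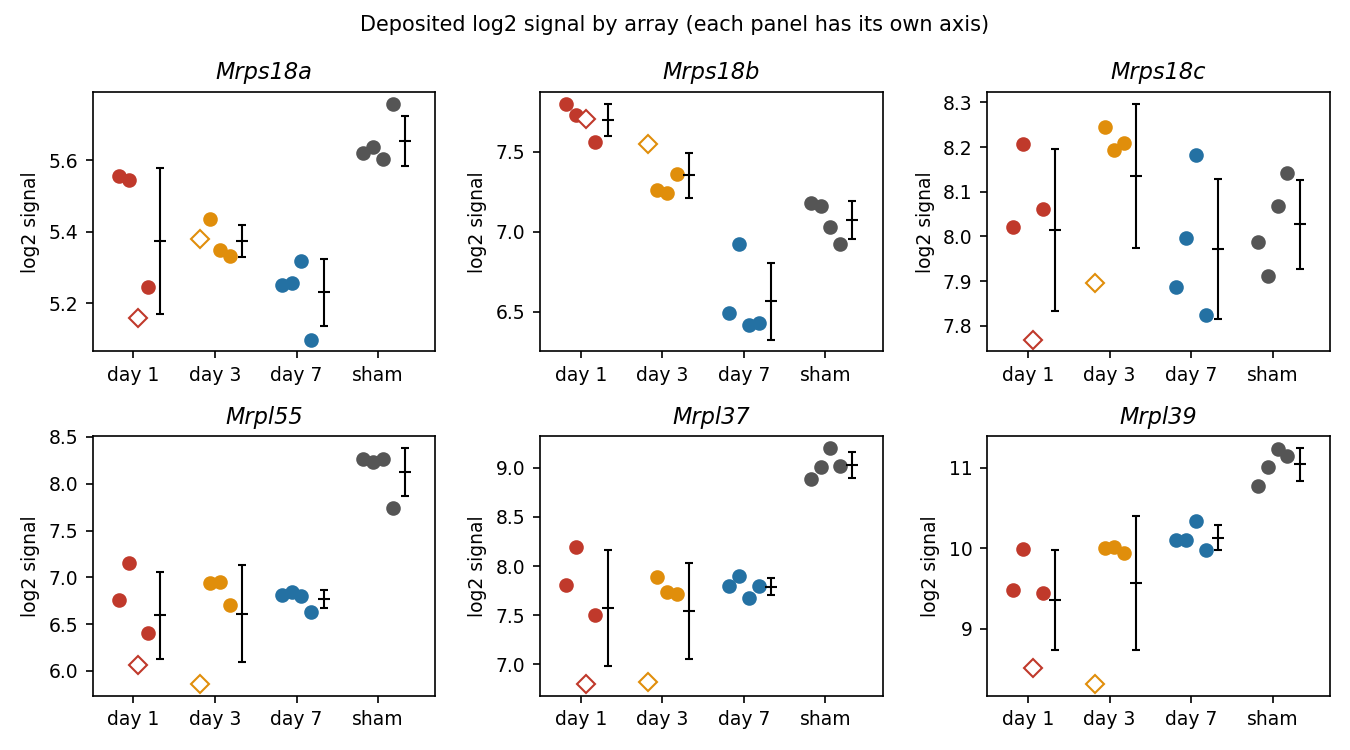
Each panel shows 1 gene, with a point for each array's log2 signal by group, open diamonds for arrays 13 and 31, and a dash with bars for the group mean and SD (n = 4); the vertical axes differ between panels and do not start at 0. Mrps18b is above sham on days 1 and 3, Mrps18c overlaps with sham, and Mrps18a, Mrpl55, Mrpl37 and Mrpl39 lie below sham on all 3 days.

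Mrps36 was measured with the set but is not a subunit. It gave 6.96, 7.19, 6.46 and 6.88 on the day 1 arrays, 6.68, 7.30, 7.21 and 7.19 on the day 3 arrays, 7.27, 7.27, 7.34 and 7.03 on the day 7 arrays, and 8.13, 8.53, 8.22 and 8.19 on the sham arrays. It fell on each day, with differences of -1.39, -1.17 and -1.04 on days 1, 3 and 7 (adjusted p = 2.03e-05, 6.16e-05 and 0.000402), with no overlap with sham. Its pseudogenes Mrps36-ps1, at -1.69, -1.53 and -1.09, and Mrps36-ps2, at -1.58, -1.34 and -1.23, were called lower on all 3 days. Mrpl23-ps1 had differences of -1.51, -0.97 and -0.81, called on days 1 and 3, beside its parent Mrpl23 at -0.33, -0.32 and -0.32, called on all 3. Mrpl48-ps had differences of -0.73, -0.44 and -0.41, called on days 1 and 3, and Mrpl48 at -0.63, -0.48 and -0.40, called on the same days. Pseudogene and parent can be near-identical in sequence, so which of them gave the signal is uncertain.

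Promoters of the members were read from the RefSeq promoter table of GRCm38.p6, which spans 250 bases before to 50 bases after a gene's start and held 64 of the subunit genes. They are shown because nuclear respiratory factor 1 (NRF1), the ETS factor GABPA and YY1 are known to act on many nuclear genes for mitochondria. Both strands were searched for CCGGAAG, the ETS core bound by GABPA, for an NRF1 motif, GCGCA and GCGC with any 1 base between them, and for AANATGGCG, a YY1 motif whose ATG can also be a start codon. The ETS core was found in 23 of the 64 promoters, or 35.9%, against 9.12% of all 27025 promoters in the table and 16.3% of those of 10178 tested protein-coding genes. The NRF1 motif was in 18.8%, against 4.78% and 9.49%, and the YY1 motif in 15.6%, against 2.51% and 4.85%. At least 1 of them was in 38 promoters, or 59.4%, against 14.7% and 26.9%. A match describes these letters only. The 3 S18 relatives, which moved in different ways, and Mrpl39 and Mrpl42, which were among the largest falls, are printed below 5' to 3' on the strand of the gene, with motif matches in capitals:
Mrps18a: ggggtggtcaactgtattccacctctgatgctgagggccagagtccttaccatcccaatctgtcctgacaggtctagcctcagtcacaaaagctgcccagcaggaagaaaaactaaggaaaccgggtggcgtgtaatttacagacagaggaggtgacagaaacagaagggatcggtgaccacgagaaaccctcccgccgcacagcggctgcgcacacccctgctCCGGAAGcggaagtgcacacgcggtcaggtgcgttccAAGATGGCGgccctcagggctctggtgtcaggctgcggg
Mrps18b: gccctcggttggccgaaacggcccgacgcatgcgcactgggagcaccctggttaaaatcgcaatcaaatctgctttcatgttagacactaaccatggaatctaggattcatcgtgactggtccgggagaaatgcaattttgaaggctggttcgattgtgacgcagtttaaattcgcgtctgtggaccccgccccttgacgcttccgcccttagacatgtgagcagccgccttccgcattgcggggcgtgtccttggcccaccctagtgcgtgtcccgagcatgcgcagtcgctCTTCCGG
Mrps18c: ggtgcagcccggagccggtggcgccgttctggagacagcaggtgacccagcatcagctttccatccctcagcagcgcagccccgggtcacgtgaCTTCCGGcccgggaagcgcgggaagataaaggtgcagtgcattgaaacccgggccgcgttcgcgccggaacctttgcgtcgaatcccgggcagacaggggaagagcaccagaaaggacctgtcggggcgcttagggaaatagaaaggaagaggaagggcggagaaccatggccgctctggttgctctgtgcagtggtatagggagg
Mrpl39: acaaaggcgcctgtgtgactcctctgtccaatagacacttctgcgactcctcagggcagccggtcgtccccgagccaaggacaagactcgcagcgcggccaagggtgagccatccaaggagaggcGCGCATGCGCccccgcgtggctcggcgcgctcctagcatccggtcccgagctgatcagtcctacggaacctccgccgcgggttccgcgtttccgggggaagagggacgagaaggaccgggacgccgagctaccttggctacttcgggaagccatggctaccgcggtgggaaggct
Mrpl42: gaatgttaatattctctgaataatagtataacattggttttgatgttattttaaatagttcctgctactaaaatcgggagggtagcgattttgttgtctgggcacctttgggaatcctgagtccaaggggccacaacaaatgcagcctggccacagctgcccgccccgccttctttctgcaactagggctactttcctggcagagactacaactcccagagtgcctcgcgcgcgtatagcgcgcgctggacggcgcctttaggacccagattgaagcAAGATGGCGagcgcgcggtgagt
All 3 S18 relatives carried the ETS core, spelled as given in Mrps18a, from 26 bases before the start, and as its reverse complement in Mrps18b, from 44 bases after the start, and in Mrps18c, from 156 bases before. Mrps18a also held the YY1 motif 12 bases after the start, Mrpl42 held it 28 bases after, and Mrpl39 held the NRF1 motif 125 bases before. These windows are on chromosome 17 at chr17:46110754-46111053 (plus strand) for Mrps18a and chr17:35916391-35916690 (minus strand) for Mrps18b, chr5:100798509-100798808 (plus) for Mrps18c, chr16:84735195-84735494 (minus) for Mrpl39 and chr10:95501900-95502199 (minus) for Mrpl42. Of 37 tested members with at least 1 motif 29, 28 and 21 fell on days 1, 3 and 7, and of 26 without any 21, 22 and 16. Without arrays 13 and 31 the day 7 counts were 34 of 37 and 22 of 26.

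Between the infarction days, few members were called. On day 3 against day 1, limma called 0 of 77, where 8.11% of all tested genes were called, 2.16% lower and 5.95% higher on day 3. At an unadjusted p under 0.05, 2 members were lower and 1 higher, where 20.8% of all tested genes passed in either direction. On day 7 against day 3, 2 members fell and none rose, against 8.57% and 4.06% of all tested genes. These were Mrps18b, with a difference of -0.79 (adjusted p = 0.000797), and Mrpl52, at -0.40 (adjusted p = 0.00515). On day 7 against day 1, 4 members fell and none rose, against 12.7% and 13.7%, namely Mrps18b at -1.13 (adjusted p = 1.38e-05), Mrpl17 at -0.40 (adjusted p = 0.00092), Mrpl52 at -0.32 (adjusted p = 0.01) and Mrps10 at -0.20 (adjusted p = 0.0462). Quantile normalisation left 1 lower and 1 higher in that comparison.

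Leaving out arrays 13 and 31 kept the direction against sham. On day 1, 63 members fell and 3 rose, against 24.7% and 33.0% of all tested genes, and all 61 falls found with 16 arrays were among the 63. On day 3, 60 fell and 4 rose, against 20.9% and 28.2%, and the 3 falls lost were Mrpl27, Mrpl32 and Mrps12. The medians moved to -0.54 on day 1 and -0.47 on day 3. On day 7, whose differences are the same in both fits, 69 fell and none rose, against 19.3% and 21.3%. All 46 day 7 falls found with 16 arrays were among them, and the 23 added were Mrpl3, Mrpl10, Mrpl12, Mrpl13, Mrpl14, Mrpl15, Mrpl22, Mrpl27, Mrpl32, Mrpl39, Mrpl41, Mrpl42, Mrpl44, Mrpl48, Mrpl50, Mrpl52, Mrps2, Mrps12, Mrps15, Mrps23, Mrps30 and the pseudogenes Mrpl23-ps1 and Mrpl48-ps. The day 7 count was also sensitive to other single arrays: it was 28 without sham array 2, 27 without array 72 and 25 without array 74. Leaving out array 31 alone gave the highest count of any single array, 68. Shares of all tested genes are not given for these single-array fits, so a sensitivity particular to the members cannot be read from them.

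When arrays 13 and 31 were left out, more members separated the days, and so did more of all tested genes. On day 3 against day 1, 1 member fell, Mrps18b, at -0.41, and 6 rose, Mrpl23-ps1 with the largest difference, 0.63. Of all tested genes, 15% were lower and 16.5% higher in that comparison. On day 7 against day 3, 5 members fell, where 15.2% of all tested genes were lower and 5.43% higher. On day 7 against day 1, 5 fell and 9 rose, with Mrpl42 at 0.56, Mrpl39 at 0.49 and Mrpl18 at 0.37. Of all tested genes, 25.9% were then lower and 18.4% higher on day 7 than on day 1.

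**Figure D4:**
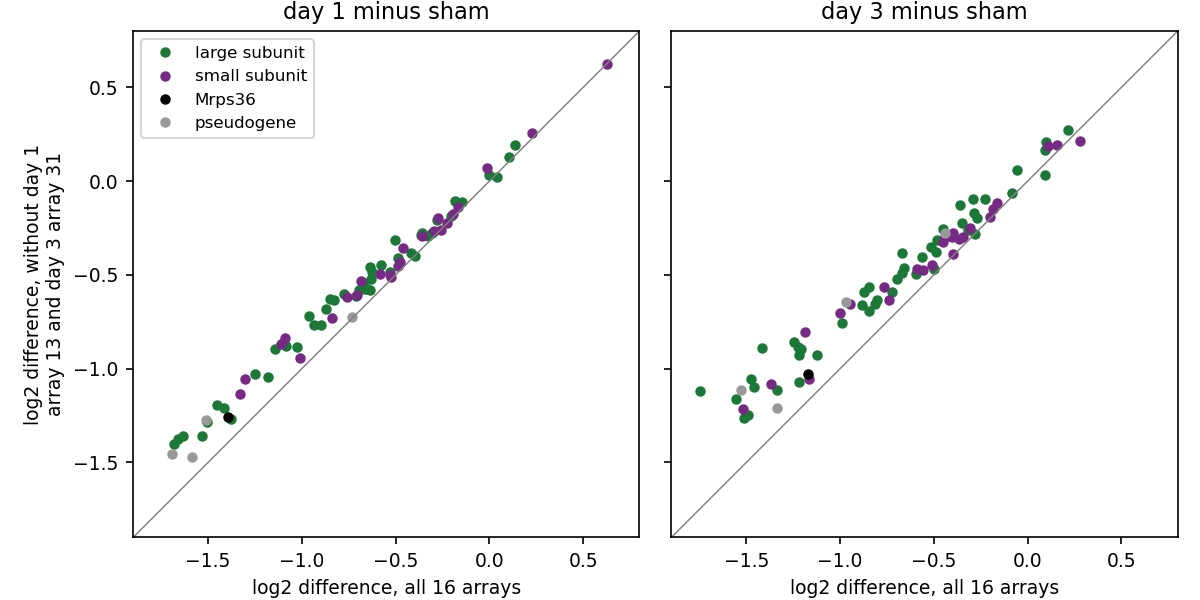
Each point is 1 tested member, with its log2 difference from sham over all 16 arrays on the horizontal axis and without arrays 13 and 31 on the vertical axis, for day 1 (left) and day 3 (right); the line marks equal values. Points at the lower left lie above the line, as with Mrpl42 on day 3, and stay below 0.

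Other genes of mitochondrial translation were also mostly lower. Of 14 tested translation factors 13, 13 and 10 fell on days 1, 3 and 7 and none rose. Taco1, which activates translation of cytochrome oxidase subunit I, had differences from sham of -2.22, -2.11 and -1.38, the elongation factor Tufm at -1.83, -1.72 and -1.20, and the elongation factor Gfm1 at -1.45, -1.75 and -1.05, the last not called with all 16 arrays (adjusted p = 0.0717) and called without arrays 13 and 31 (adjusted p = 4.47e-05). Of 24 tested genes for assembly of the mitoribosome and modification of its RNA, 19, 17 and 14 fell and none rose. They were led on each day by Tfb1m, which methylates the small rRNA, at -1.77, -1.24 and -1.03, and Eral1, a chaperone of that rRNA, at -0.91, -1.06 and -0.82. Of 19 mitochondrial tRNA synthetases and related genes 14, 14 and 11 fell and none rose. Fars2, which charges the phenylalanine tRNA, had differences of -1.44, -1.48 and -0.97, and Gatc, a subunit of the enzyme that makes glutaminyl-tRNA, at -1.41, -1.60 and -1.03. Once arrays 13 and 31 were removed, the falls on days 1, 3 and 7 were 14, 13 and 13 for the factors, 18, 16 and 18 for the assembly genes and 14, 14 and 16 for the synthetases, and 2 assembly genes rose on day 1.

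Of 5 tested subunits whose symbol has another form 3, 3 and 2 fell: Ptcd3, at -1.40, -1.46 and -0.90, the last not called with all 16 arrays (adjusted p = 0.111) and called without arrays 13 and 31 (adjusted p = 0.000748), Mrpl58, annotated under the older symbol Ict1, at -0.90, -0.86 and -0.62, and Dap3, at -0.73, -0.74 and -0.62. Of 17 genes for mitochondrial genome expression and RNA handling 10, 8 and 8 fell and 1, 0 and 0 rose, with the RNA-binding protein gene Lrpprc at -1.20, -1.64 and -1.05. A list of 11 genes held regulators of nuclear genes for mitochondria and also Clpp, Clpx and Lonp1, genes of mitochondrial proteases that are not such regulators. Of the 11, 4, 6 and 2 fell and 4, 4 and 0 rose. The protease genes add to the falls: without arrays 13 and 31 each was called lower on days 3 and 7. Their day 3 differences in that fit were -0.40, -0.68 and -0.41. Quantile normalisation left 2 rises on day 1, Pprc1 and Myc, and 1 on day 3, Myc, and without arrays 13 and 31, 6 fell and 1 rose on day 7. Ppargc1a, the coactivator PGC-1α, had differences of -2.63 and -2.96 on days 1 and 3 (adjusted p = 0.00415 and 0.00164) and -1.35 on day 7 (adjusted p = 0.138), which was called without arrays 13 and 31 (adjusted p = 2.66e-05). Myc, whose product drives growth and ribosome production, rose by 1.51 and 1.29 on days 1 and 3 (adjusted p = 1.74e-06 and 5.34e-06). Of the factors whose motifs were searched, Gabpa fell on days 1 and 3, with differences of -0.46 and -0.48, and Nrf1 rose by 0.21 and 0.29, calls lost under quantile normalisation on both days and under centring on day 1. Yy1 was not called on any day, and without arrays 13 and 31 it was called higher on day 3, at 0.32 (adjusted p = 0.0204).

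The cytosolic ribosomal protein genes listed here went the other way. Of 36 tested, 28, 32 and 15 rose on days 1, 3 and 7 and 2, 1 and 1 fell, with medians of 0.55, 0.78 and 0.24. Of all tested genes 24.9%, 23.5% and 14.9% rose and 22.2%, 20.2% and 9.92% fell. The list was limited to genes with a row of exactly 1 symbol and does not cover the whole cytosolic ribosome. It also held like-named genes such as Rpl6l, Rpl32l and Rps27l. Rpl12 rose by 1.20, 1.68 and 0.89. Rpl3l, the striated muscle form of the large subunit protein L3, fell on each day, with differences of -1.99, -2.996 and -1.73. The number of rises depended on scaling: after quantile normalisation 6, 19 and 3 rose and 2, 2 and 1 fell, and after centring 26, 31 and 10 rose. The fit that left out arrays 13 and 31 called 30, 33 and 23 rises and 1 fall on each day. Relative to all tested genes, their median was 0.49, 0.69 and 0.25 as deposited and 0.39, 0.57 and 0.23 after quantile normalisation. Many of these genes have near-identical pseudogenes, so single values are uncertain. The difference between the cytosolic and mitochondrial sets was not tested.

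**Figure D5:**
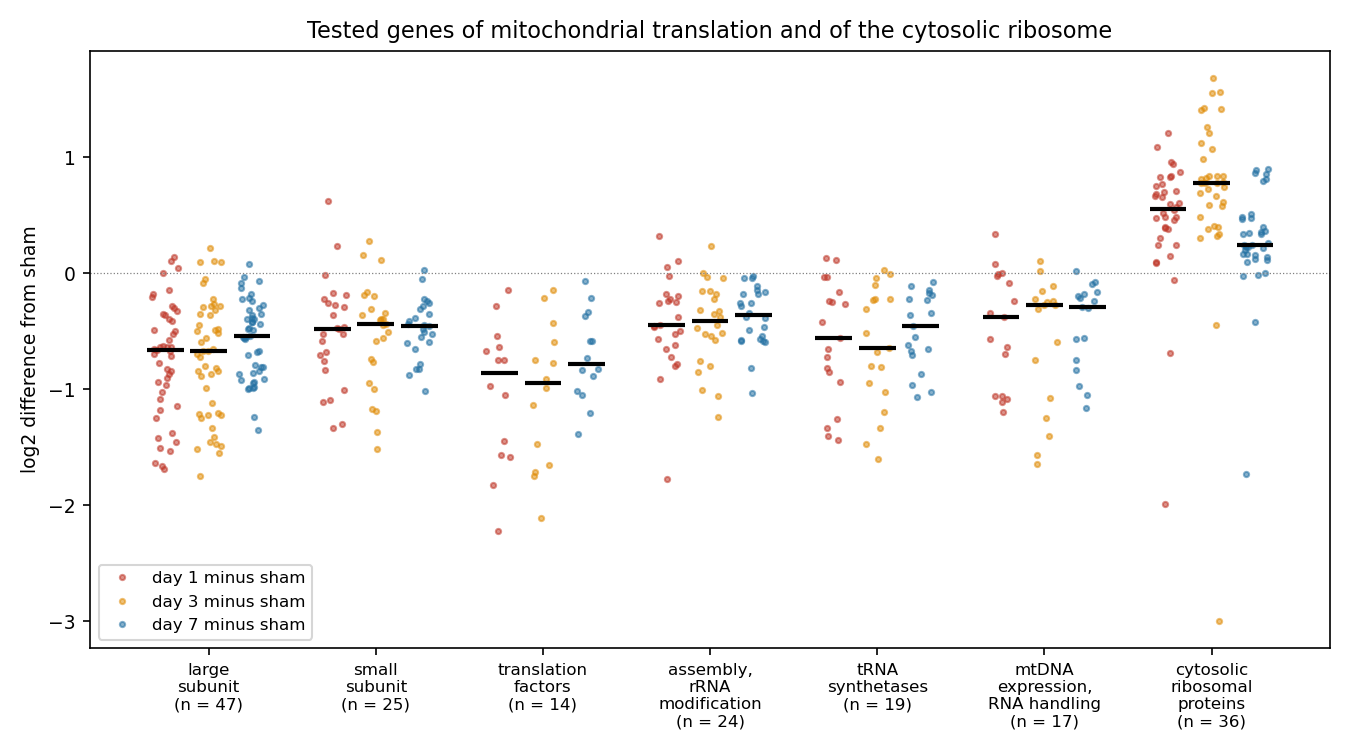
Each point is 1 tested gene with its log2 difference from sham on day 1, day 3 or day 7, and short black lines are medians; the number of genes is under each name. Medians of the mitochondrial sets lie between -0.95 and -0.28, while those of the cytosolic ribosomal proteins lie at 0.55, 0.78 and 0.24 and the lowest point of all is Rpl3l on day 3.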

How the data were processed

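Atrial RNA was measured on 16 single-colour arrays. The authors deposited log2 signals, and per the submitters' processing notes they used Affymetrix Expression Console; background correction, summarisation and scaling are not stated by them. Transcript clusters were named through the platform annotation, and none of the members' rows carried several symbols. From the deposited log2 values a model with 1 mean per group was fitted over the 16 arrays (limma 3.58.1, R 4.3.3; lmFit, eBayes with a trend), after a check on simulated data. All 6 contrasts were tested over 18419 genes, with Benjamini-Hochberg adjustment in each. Alternatives were quantile normalisation, centring, other filters, the mean of a gene's rows, array weights, no trend, a fit of 2 groups only, and leaving out arrays singly or arrays 13 and 31 together. Nothing in the labels says that arrays of a group came from separate mice, so p-values measure the spread between arrays, which may be technical. Members, gene lists and role groups were chosen with earlier results of these data known. Named members are the 8 largest called rises and falls of each day against sham, 4 each between successive days, fixed exceptions (Mrps30, Mrps18a, Mrps36, Mrpl58, Mrpl12), the role groups, and members called on no day. Proteins encoded by mitochondrial DNA were not analysed here.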

Additional observations from a re-analysis of the deposited data

Results flagged for a closer look

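Values far from the rest of their group were looked for in 100 groups of 4 arrays, as the gap to the nearest other array divided by the range of the group, and 19 exceeded the critical value of Dixon's test. Chance alone gives about 1 in 20 for independent groups, a rate that does not apply here. The groups share arrays, and most genes were named for large falls in fits that include array 31. Of the 19, 14 were the lowest value of day 3 on array 31. On that array the ratio was 0.857 for the median of all members, 0.857 for the large subunit and 0.865 for the small subunit. For single genes it was 0.953 for Mrpl39, 0.876 for Mrpl42, 0.907 for Mrpl18, 0.9 for Mrpl34, 0.889 for Mrpl16, 0.98 for Mrps9, 0.838 for Mrpl37, 0.834 for Mrps36, 0.942 for Mrps31, 0.872 for Mrpl45 and 0.835 for Mrpl12. Array 31 also had the lowest separation of control rows, 0.743, and its part in these values was not tested. The other 5 were Mrpl23-ps1 high on day 7 array 73 (0.847), Mrps18b high on day 7 array 72 (0.853), Mrpl52 low on day 7 array 74 (0.965), Mrpl55 low on sham array 4 (0.937) and Mrps31 low on sham array 1 (0.851).

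The infarction days differed by a direct limma contrast in 6 cases. Mrps18b differed by -0.79 between day 7 and day 3 and by -1.13 between day 7 and day 1. Mrpl52 differed by -0.4 and -0.32 in the same contrasts. Between day 7 and day 1, Mrpl17 differed by -0.4 and Mrps10 by -0.2.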

How the results depend on the processing

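Against sham, the counts of called members on days 1 and 3 stayed within 1.5 times the reported 63 and 64 in every alternative tried. Leaving out single arrays gave 53 to 69 on day 1, 52 to 64 on day 3 and 25 to 68 on day 7, with medians of -0.74 to -0.54, -0.66 to -0.47 and -0.56 to -0.48. The day 7 count of 46 became 70 with array weights and 31 under quantile normalisation. Day 7 calls over all tested genes moved too, from 4568 to 3056 under quantile normalisation and 7480 without arrays 13 and 31. Shares of all tested genes are not given for the weighted and single-array fits. Medians of the members moved by more than the spread of the arrays under quantile normalisation, to -0.87 on day 1 and -0.60 on day 7. Under centring their day 7 median moved as far, to -0.61. Between days, the counts were 7 for day 3 against day 1 without arrays 13 and 31 and 15 with array weights, with 0 to 11 without single arrays. For day 7 against day 3 they were 1 under quantile normalisation, 5 without both arrays, 8 with weights and 2 to 5 without single arrays. For day 7 against day 1 they were 2, 14, 22 and 3 to 21. The median for day 7 against day 3, 0.11, turned to -0.055 without both arrays, -0.045 with weights, and -0.055 without array 31, its range without single arrays being -0.055 to 0.18. The medians of day 3 and day 7 against day 1 ran from -0.08 to 0.18 and 0.03 to 0.19 without single arrays. The cause of these shifts was not tested. Signal over background limits Mrpl36, Mrpl41 and Mrps25. No paired analysis was possible because the groups share no replicate numbers.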

Other observations

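A further 4 rows carried a mitoribosomal symbol together with another gene and were left out of the set, since their signal cannot be given to 1 gene. The row of Mrpl30 and Gm6238 averaged 6.55 ± 0.29 on day 1, 6.52 ± 0.37 on day 3, 6.66 ± 0.20 on day 7 and 7.41 ± 0.06 in sham (log2 signal, SD, n = 4 each). No infarction value of that row reached its sham range. The row of Slc5a3 and Mrps6 averaged 5.63 ± 0.07, 5.87 ± 0.17, 6.09 ± 0.13 and 5.99 ± 0.29 in the same order. The rows of Ccdc142 with Mrpl53 and of Gm16279 with Mrps18b averaged between 3.81 and 4.19 in every group.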
